A study of Drosophila melanogaster with 36 samples.

Results

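The comparison described here is that of Drosophila melanogaster heads at 45 d of age with heads at 30 d, the last of 3 age steps for which heads were collected. Its members were the head libraries labelled with these 2 ages, 3 at 45 d and 3 at 30 d, or 6 of the 36 libraries of the series. The study sequenced poly-A RNA of heads and muscles through adult life and of whole young flies altered in the lysine acetyltransferase Gcn5. Both ages came from the same wild-type strain, given in the design text as WT (5905), with no allele, transgene or treatment named. The labels give neither the sex of the flies, nor the number of heads pooled in a library, nor the hour of collection, and they do not say whether replicates came from separate animals or vials. The p-values below therefore measure the spread between libraries only.

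Flies answer bacteria mainly through the Imd pathway, in which peptidoglycan recognition proteins sense fragments of the bacterial wall and the NF-kappaB factor Relish switches on antimicrobial peptides, and through the Toll pathway, which has its own set of secreted peptides. The head also holds the compound eyes, where rhodopsin Rh1, encoded by ninaE, starts the phototransduction cascade and makes photoreceptor transcripts some of the most abundant in the tissue. Its clock cells are neurons, glia and the photoreceptors themselves: Clock and Cycle drive period, timeless and vrille in a daily rhythm, and their products feed back on it.

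Counts in genes came to 3782998, 4088775 and 3332624 in replicates 1, 2 and 3 at 45 d, against 3534654, 3544756 and 3479540 at 30 d. Levels are given as CPM, counts scaled to a common library total after correction for library composition, and they compare libraries, not genes, since gene length was not taken into account. The head label fitted its markers: elav, a pan-neuronal RNA-binding protein, lay between 187 and 214 CPM at 45 d against 192 and 223 CPM at 30 d, repo, the glial homeodomain factor, lay between 89.4 and 97.4 CPM against 73.7 and 81.2 CPM, and ninaE was at or above 14400 CPM in all 6 libraries.

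Replicate 3 of the 45 d heads stood apart from the other 2. Taken in pairs, the 45 d libraries had a biological coefficient of variation of 0.0574 between replicates 1 and 2, but 0.119 between 1 and 3 and 0.116 between 2 and 3. The pairs at 30 d gave 0.0797, 0.0956 and 0.059. Replicate 3 differed from the mean of the other 45 d libraries by more than 2-fold on the log2(CPM + 1) scale in 50 genes that were higher and 49 that were lower, among the 9035 genes tested. In a weighted limma fit of all 12 head libraries it received the lowest weight, 0.49, against 0.944 and 1.82 for 45 d replicates 1 and 2. The medians of gene lists are therefore given below with and without it.

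**Figure D1:**
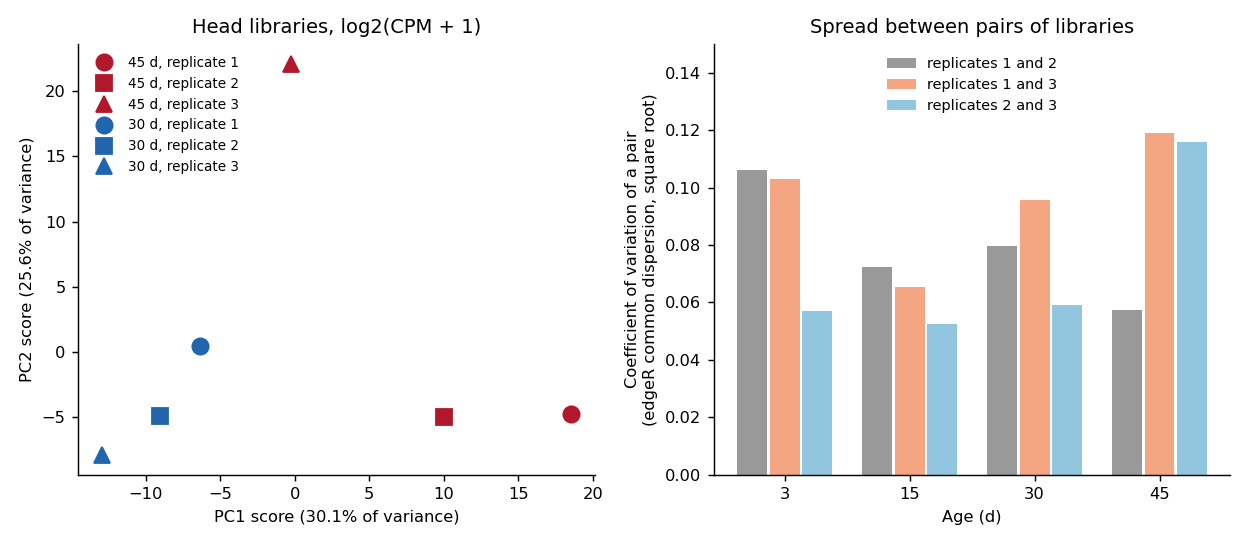
Left, scores of the 6 head libraries on the first and second principal components of log2(CPM + 1), 45 d in red and 30 d in blue. Right, the coefficient of variation of each pair of replicates at the 4 ages. On the left, 45 d replicate 3 lies at a second-component score of 22.13, away from the other 5 libraries, and on the right both 45 d pairs that hold it exceed 0.11, while the pair of replicates 1 and 2 is at 0.0574.

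Of 9035 genes tested, 42 rose and 10 fell at 45 d, a background of 0.576% in all, 0.465% higher and 0.111% lower (edgeR quasi-likelihood F-test, adjusted p under 0.05 by Benjamini and Hochberg over all genes tested). The median log2 change over all genes tested was -0.0017 after scaling. Of the 52 calls 80.8% were higher, against 52.9% of the calls without 45 d replicate 3 and 56% with libraries weighted by their spread. Of the genes that rose, 17 did so by at least 2-fold, and of those that fell, 4. The 3 libraries of each age did not overlap for any of the 52 genes; over all genes tested, 7.18% lay apart in this way with 45 d higher and 6.39% with 45 d lower. At an unadjusted p under 0.05 there were 471 genes higher and 372 lower. Without 45 d replicate 3, the counts were 73 higher and 65 lower (0.799% and 0.711% of 9137 genes), and 38 of the 42 and 9 of the 10 were among them. Every other omission left fewer of the 52 past the threshold: 20 without 45 d replicate 1, 38 without 45 d replicate 2, 31 without 30 d replicate 1, 24 without 30 d replicate 2 and 10 without 30 d replicate 3. Def, CG4269, PGRP-SD, Listericin, CG8620, CG9759, Tsp42Ed, CG31100 and GIIIspla2 were past it in all 6 omissions.

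**Figure D2:**
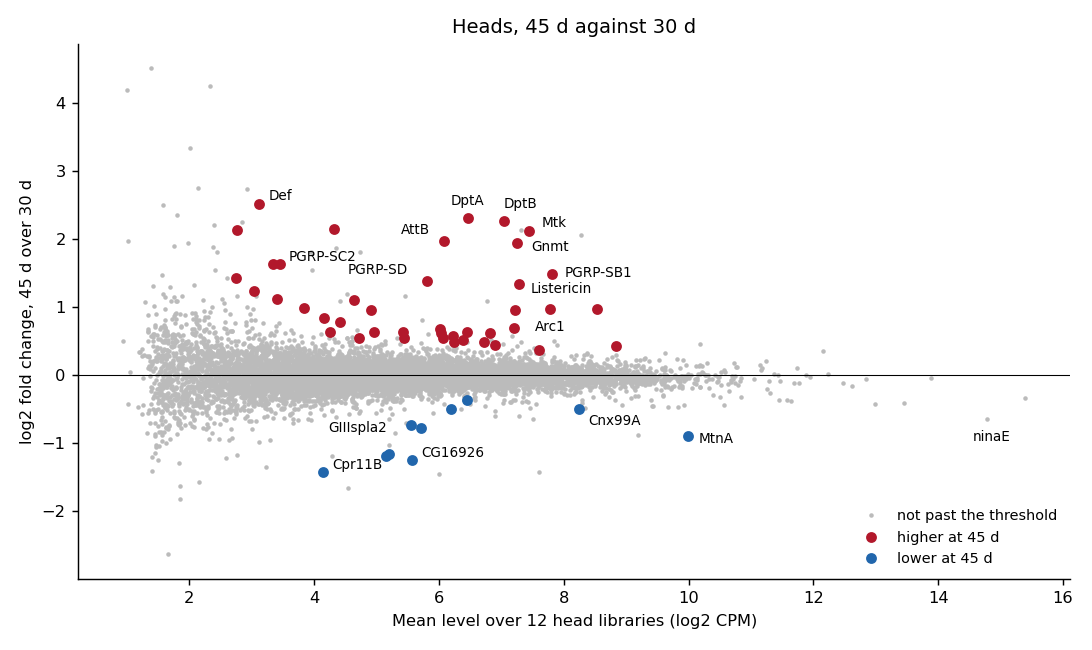
Each point is 1 of the 9035 genes, with the mean level over 12 head libraries on the x axis (log2 CPM) and the log2 fold change of 45 d over 30 d on the y axis. Genes past the threshold are red where higher and blue where lower; antimicrobial peptide and recognition genes such as Def, DptA and PGRP-SB1 lie among the largest rises, and ninaE, at the right edge, is not past the threshold.

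Antimicrobial peptides were the group with the largest median change of the 40 gene lists examined. Of 14 members tested, Def, DptA, DptB, Mtk and AttB rose (background 0.465% higher) and none fell. The median log2 change over the 14 was 2.02 against -0.0017 over all genes tested. In 10 of the 14 the 45 d libraries all lay above the 30 d libraries, against 7.18% of all genes tested. Together the peptides took 0.347, 0.187 and 0.555% of counts in genes in 45 d replicates 1, 2 and 3, against 0.109, 0.138 and 0.106% at 30 d. All 45 d shares lay above all 30 d shares, and the 45 d libraries differed from one another by more than the whole 30 d range. In 12 of the 14 genes 45 d replicate 3 was the highest of its group, and in 12 replicate 2 was the lowest.

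Def, the insect defensin against Gram-positive bacteria (chromosome 2R, 10054178 to 10054576, minus strand, FlyBase annotation r6.36), had 20.4, 13.9 and 35.8 CPM at 45 d, against 5.79, 3.06 and 2.92 CPM at 30 d. Its means were 23.4 ± 11.2 CPM at 45 d and 3.92 ± 1.62 CPM at 30 d (SD, n = 3 each), a log2 change of 2.53 ± 0.34 (SE, adjusted p = 0.0026). The lowest 45 d library lay well above the highest 30 d library. DptA and DptB, the diptericins typical of the Imd response, lie 1131 bases apart on chromosome 2R. DptA had 254, 118 and 436 CPM at 45 d, against 57.7, 59.2 and 43.2 CPM at 30 d, a log2 change of 2.32 ± 0.42 (adjusted p = 0.016). DptB had 324, 186 and 652 CPM, against 104, 68.4 and 66.9 CPM, a log2 change of 2.27 ± 0.47 (adjusted p = 0.0337), and 10.7% of its exon bases overlap CG43109 on the opposite strand. The neighbours kept the same order among the 45 d libraries, replicate 3 highest and replicate 2 lowest.

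Mtk, the proline-rich peptide metchnikowin, had 466, 239 and 780 CPM at 45 d, against 114, 149 and 74.5 CPM at 30 d (log2 change 2.13 ± 0.38, adjusted p = 0.0147). AttB, an attacin active on Gram-negative bacteria, had 144, 87.7 and 349 CPM, against 48.3, 48.7 and 48.8 CPM (log2 change 1.98 ± 0.41, adjusted p = 0.0337). Its near-identical neighbour AttA had 59.8, 31.4 and 126 CPM, against 21.2, 19.5 and 19.3 CPM (log2 change 1.82 ± 0.46, adjusted p = 0.112), and reads that fit both genes could be split or lost in counting. The 30 d libraries were far more even than the 45 d libraries in both attacins. AttC, CecA1, CecA2, CecC and Dro, attacin, cecropin and drosocin genes, had log2 changes between 1.81 and 2.22 without passing the threshold, with adjusted p from 0.0874 for Dro to 0.152 for CecC. AttC alone held 861, 384 and 1455 CPM at 45 d, against 247, 204 and 194 CPM at 30 d. The members with values below those of the rest were 3 genes of the drosomycin family, named for an antifungal peptide: Drs (1.09 ± 0.50), Drsl5 (-0.09 ± 0.10) and Drsl4 (-0.24 ± 0.23), on the log2 scale. Of 7 members under the count filter, AttD had 46 counts over the 45 d libraries, against 6 over the 30 d libraries, CecB had 29 counts, against 3, and the others had at most 2 counts at either age.

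The number of peptides past the threshold rested on single libraries. It was 5 without 45 d replicate 3, 11 without 45 d replicate 2, 3 without 45 d replicate 1 or 30 d replicate 2, and 1, Def, without 30 d replicate 1 or 30 d replicate 3. The median of the list was 1.38 on the log2 scale without 45 d replicate 3. It had also been positive in the earlier steps of head ageing, 1.25 for 15 d over 3 d and 1.18 for 30 d over 15 d, steps that share the 15 and 30 d libraries. At 15 d the peptides took 0.0868, 0.0450 and 0.0497% of counts in genes in replicates 1, 2 and 3. At 3 d they took 0.0521, 0.0533 and 0.0470%. By this share, 15 d replicate 1 alone lay above the 3 d range.

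Among the peptidoglycan recognition genes, 4 of 13 tested rose (background 0.465% higher), PGRP-SC2, PGRP-SB1, PGRP-SD and PGRP-LB, and none fell. The median log2 change over the 13 was 0.26, and it was -0.0059 without 45 d replicate 3. PGRP-SB1, a secreted amidase that cleaves peptidoglycan, had 454, 401 and 746 CPM at 45 d, against 234, 177 and 156 CPM at 30 d (log2 change 1.5 ± 0.23, adjusted p = 0.0062). PGRP-SD, a secreted recognition protein, had 124, 95.8 and 156 CPM, against 56.6, 47.6 and 39.1 CPM (log2 change 1.38 ± 0.18, adjusted p = 0.0017), and shares 4.85% of its exon bases with CG7492 on the opposite strand. PGRP-LB, an amidase that restrains the Imd pathway, had 26.4, 27.4 and 30.7 CPM, against 18.5, 15.3 and 12.8 CPM (log2 change 0.85 ± 0.14, adjusted p = 0.0112). The spread of PGRP-LB among the 45 d libraries was small beside that of the peptides. PGRP-SC2, another amidase of this kind, had 38.9, 17.7 and 31.6 CPM, against 4.42, 15.6 and 8.18 CPM (log2 change 1.63 ± 0.34, adjusted p = 0.0337). PGRP-LC, the cell-surface receptor of the Imd pathway, had 90.9, 86.3 and 99.0 CPM at 45 d, against 88.6, 93.7 and 93.7 CPM at 30 d, a log2 change of -0.0016 ± 0.097. The intracellular receptor PGRP-LE (0.06 ± 0.15) and PGRP-LA (-0.04 ± 0.09) were as near to 0 on the log2 scale. The 4 called genes were secreted or amidase members, and all 4 were also past the threshold without 45 d replicate 3. Whether such members differed as a class from the rest of the 13 was not tested. Without 30 d replicate 3 the count was 1, PGRP-SD, where PGRP-SB1 had an adjusted p of 0.0688. PGRP-SC2 also lost its call without 45 d replicate 1 or 30 d replicate 1 (adjusted p = 0.22 and 0.115), and PGRP-LB without 30 d replicate 2 (adjusted p = 0.0507).

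Other immune lists held no gene past the threshold. Of 27 Toll and Imd signalling genes, 19 lay above 0, with a median log2 change of 0.045, or 0.018 without 45 d replicate 3. Rel, which encodes Relish, had 209, 187 and 272 CPM at 45 d, against 172, 153 and 149 CPM at 30 d (log2 change 0.49 ± 0.12, adjusted p = 0.112). Of 16 Bomanins and other effectors of the Toll pathway, 14 lay above 0, with a median of 0.16, or 0.035 without that library. BomBc3 was the member of this list with the smallest p, with 199, 166 and 237 CPM, against 132, 159 and 143 CPM (log2 change 0.47 ± 0.11, adjusted p = 0.0795). The library groups lay apart with 45 d higher for this 1 gene of the 16, while 7.18% of all genes tested lay apart in this way. Listericin, an antibacterial peptide gene that belonged to no list, rose with 298, 258 and 442 CPM at 45 d, against 164, 112 and 116 CPM at 30 d (log2 change 1.34 ± 0.17, adjusted p = 0.0017).

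**Figure D3:**
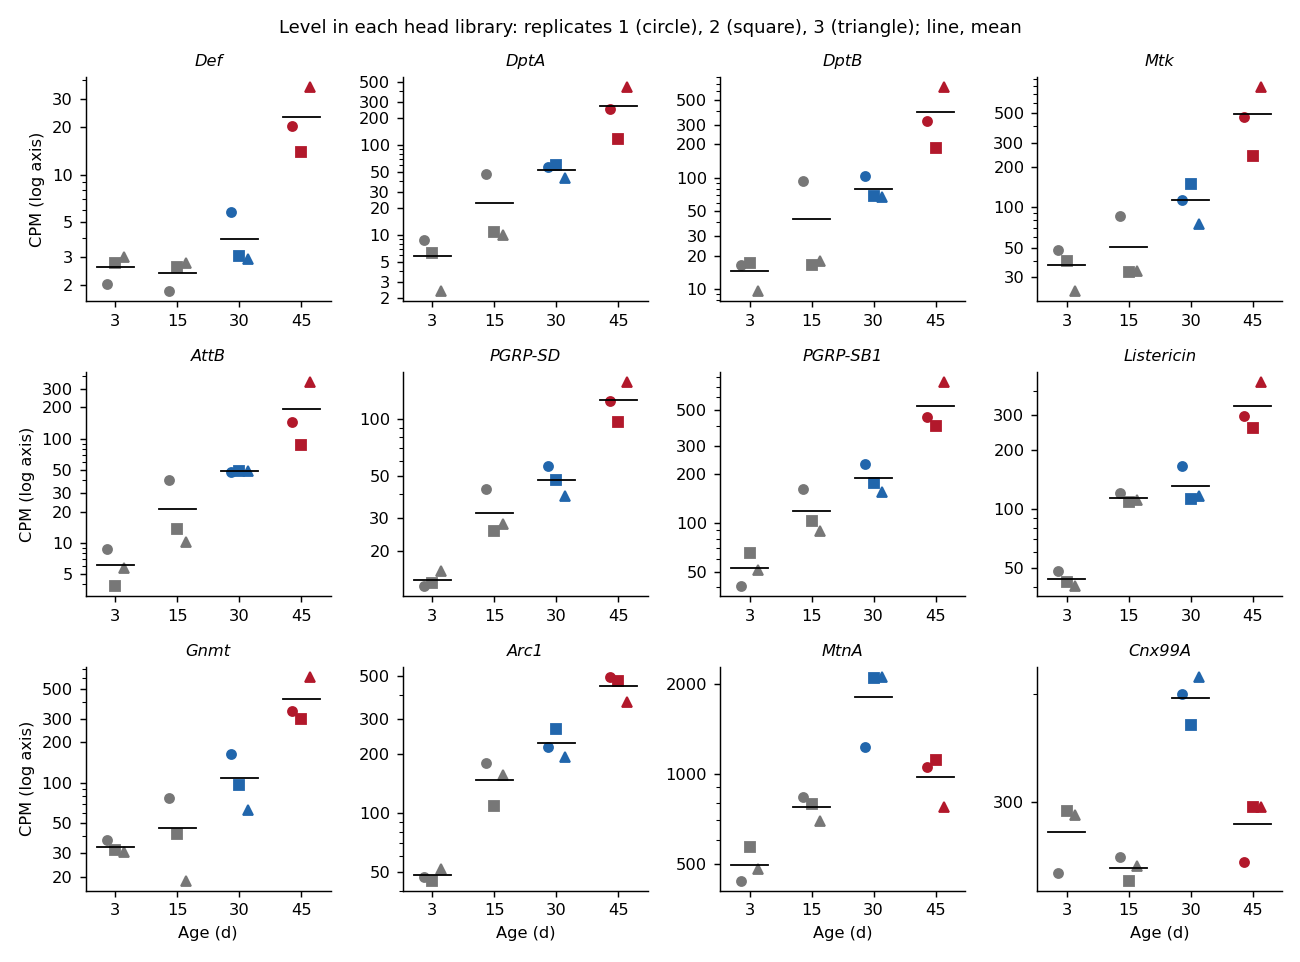
CPM of 12 genes in each head library on log axes, by age, with 45 d in red, 30 d in blue and earlier ages in grey; the line is the mean of 3 replicates. The immune genes in the first 8 panels have their highest mean at 45 d, while MtnA and Cnx99A have theirs at 30 d.

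Outside immunity the genes that rose had varied roles. Gnmt, the glycine N-methyltransferase that consumes S-adenosylmethionine, had 341, 300 and 612 CPM at 45 d, against 165, 97.1 and 62.5 CPM at 30 d (log2 change 1.94 ± 0.36, adjusted p = 0.0168), with 7.58% of its exon bases shared with CG43630 on the opposite strand. Ahcy, the adenosylhomocysteinase that acts on the product of such methylations, had 90.4, 90.7 and 115 CPM, against 66.2, 72.6 and 63.4 CPM (log2 change 0.55 ± 0.11, adjusted p = 0.0348). Gnmt lost its call without 30 d replicate 2 or 3 (adjusted p = 0.108 and 0.127), and Ahcy kept it in 1 of the 6 omissions, that of 45 d replicate 2, with an adjusted p up to 0.206 in the others.

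Arc1, an activity-regulated gene whose protein forms virus-like capsids, had 494, 473 and 368 CPM at 45 d, against 218, 269 and 192 CPM at 30 d (log2 change 0.98 ± 0.15, adjusted p = 0.0063). It was the 1 of 6 activity-induced genes to pass, where 0.465% of all genes tested rose. Its lowest 45 d library was replicate 3, and without 30 d replicate 3 its adjusted p was 0.0688. Ldh, lactate dehydrogenase, was the 1 of 13 glycolysis genes to pass, with 39.6, 33.0 and 31.6 CPM, against 19.6, 20.6 and 20.7 CPM (log2 change 0.78 ± 0.15, adjusted p = 0.0238). Gadd45, a stress-responsive regulator, was the 1 of 15 DNA damage and apoptosis genes to pass, with 35.1, 27.4 and 29.8 CPM, against 20.7, 18.6 and 20.1 CPM (log2 change 0.63 ± 0.12, adjusted p = 0.0249). Both Ldh and Gadd45 passed without 45 d replicate 2 or 3 and not in the other 4 omissions (adjusted p up to 0.139 for Ldh and 0.153 for Gadd45). Obp56a was the 1 of 26 odorant-binding protein genes to pass, with 31.6, 26.3 and 31.0 CPM at 45 d, against 18.2, 13.6 and 12.8 CPM at 30 d (log2 change 0.98 ± 0.15, adjusted p = 0.0055); without 30 d replicate 3 its adjusted p was 0.0509.

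Several further genes rose by less than 2-fold. Tsp42Ed, a tetraspanin, had 118, 104 and 106 CPM at 45 d, against 77.8, 71.8 and 62.8 CPM at 30 d (log2 change 0.63 ± 0.087, adjusted p = 0.0032). Mvl, a metal-ion transporter of the Nramp family, had 116, 97.4 and 114 CPM, against 70.9, 76.5 and 80.6 CPM (log2 change 0.52 ± 0.087, adjusted p = 0.0106). Myo31DF, an unconventional myosin known for its role in left-right asymmetry, had 117, 107 and 120 CPM, against 83.6, 87.6 and 73.0 CPM (log2 change 0.49 ± 0.081, adjusted p = 0.0101), and 11.1% of its exon bases overlap an antisense RNA gene. Mmp1, a matrix metalloproteinase, had 155, 143 and 102 CPM, against 81.7, 87.9 and 87.9 CPM (log2 change 0.64 ± 0.12, adjusted p = 0.0168), so its 45 d libraries were spread more widely than its 30 d libraries. The gene cher, for the filamin that links actin filaments, had a log2 change of 0.44 ± 0.091 (adjusted p = 0.0337). These 5 genes lay outside the rule for named genes and were chosen after their values were seen. Without 45 d replicate 1 the adjusted p was 0.0693 for Mvl, and without 30 d replicate 3 it was 0.0861 for Myo31DF; Mmp1 passed in 1 and cher in 3 of the 6 omissions, with adjusted p up to 0.106 and 0.206.

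Uncharacterised genes made up much of the rest. CG4269 was even in both groups, with 24.2, 24.2 and 23.5 CPM at 45 d, against 7.17, 8.90 and 7.01 CPM at 30 d (log2 change 1.63 ± 0.19, adjusted p = 0.0011), and 16.3% of its exon bases overlap CG4294 on the opposite strand. CG8620 had 21.7, 17.4 and 14.4 CPM, against 8.0, 8.06 and 6.72 CPM (log2 change 1.24 ± 0.18, adjusted p = 0.0045). The remaining genes among the 15 largest rises were CG45045, CG43920 and CG15282, with log2 changes of 2.15 ± 0.47, 2.14 ± 0.38 and 1.43 ± 0.28 (adjusted p = 0.047, 0.0147 and 0.0258). CG45045 was the least stable of these 5: its 45 d libraries held 66.0, 18.6 and 87.6 CPM, and without 45 d replicate 1, its adjusted p was 0.205. CG45045 passed in 1 of the 6 omissions, CG43920 in 4 and CG15282 in 3, with adjusted p up to 0.206, 0.0932 and 0.177.

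All 10 genes that fell are named here. MtnA, a metallothionein that binds copper and other metals, fell to 1050, 1111 and 774 CPM at 45 d, against 1230, 2095 and 2107 CPM at 30 d (log2 change -0.89 ± 0.17, adjusted p = 0.0255). It was the 1 of 17 antioxidant and metal genes past the threshold, where 0.111% of all genes tested fell. Cnx99A, the calnexin chaperone that rhodopsin needs to mature, had 255, 296 and 296 CPM, against 401, 369 and 419 CPM (log2 change -0.49 ± 0.084, adjusted p = 0.0127). At the step before, 30 d over 15 d, which shares the 30 d libraries, MtnA (1.22, adjusted p = 0.003) and Cnx99A (0.65, adjusted p = 0.0023) had risen, and Cyp309a1 likewise (0.76, adjusted p = 0.0117). Cyp309a1, the 1 of 64 cytochrome P450 genes past the threshold, had 42.6, 40.2 and 56.6 CPM at 45 d, against 64.0, 83.2 and 89.3 CPM at 30 d (log2 change -0.77 ± 0.14, adjusted p = 0.016). For these 3 genes the 30 d libraries were the highest of the 4 ages on average.

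GIIIspla2, a secreted phospholipase A2, had 33.9, 39.3 and 35.2 CPM at 45 d, against 56.6, 56.5 and 66.9 CPM at 30 d (log2 change -0.73 ± 0.10, adjusted p = 0.0038). Cpr11B, the 1 of 17 cuticle protein genes past the threshold (background 0.111% lower), had 7.47, 8.6 and 4.21 CPM, against 15.4, 18.1 and 22.8 CPM (log2 change -1.43 ± 0.25, adjusted p = 0.0147). Both groups of libraries were well apart for these 2 genes. CG16926, CG16898 and CG8654 had log2 changes of -1.25 ± 0.26, -1.19 ± 0.25 and -1.15 ± 0.24 (adjusted p = 0.0384, 0.0414 and 0.0358); in all 3, 30 d replicate 1 was the lowest 30 d library, for example 28.7, 45.0 and 68.9 CPM for CG8654. Tmx3, named for a thioredoxin-related transmembrane protein, and CG31751 had smaller changes of -0.50 ± 0.10 and -0.36 ± 0.072 (adjusted p = 0.0334 and 0.0299). Without 30 d replicate 3 or without 45 d replicate 1, GIIIspla2 was the 1 gene of the 10 past the threshold, with adjusted p from 0.0541 to 0.275 for the other 9. Without 30 d replicate 2, 3 of the 10 were past it, and without 45 d replicate 2, 4.

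Photoreceptor genes lay lower at 45 d, but none of 31 tested passed the threshold with all libraries. Of these, 29 were below 0, and the median log2 change was -0.31. In 8 the 45 d libraries all lay below the 30 d libraries, against 6.39% of all genes tested. The list took 4.52, 5.62 and 6.99% of counts in genes in 45 d replicates 1, 2 and 3, against 7.38, 7.22 and 8.44% at 30 d. The 45 d shares did not overlap those at 30 d, and replicate 3 was the closest to them. In bulk heads, fewer photoreceptors and less RNA per photoreceptor cannot be told apart.

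The Rh1 gene ninaE (chromosome 3R, 19886255 to 19888206, minus strand) had 14400, 19000 and 27680 CPM at 45 d, against 31550, 28440 and 35400 CPM at 30 d (log2 change -0.64 ± 0.17, adjusted p = 0.13). Without 45 d replicate 3 the change was -0.93 with an adjusted p of 0.0016, and the other omissions gave adjusted p from 0.184 to 0.457. It also passed with sample weights (adjusted p = 0.0065), with the replicate block (0.0451) and with no filter on low counts (9.8e-10). In the fit with no filter a gene's own spread weighed little in the p-value. It did not pass with DESeq2 (adjusted p = 0.226), DESeq2 size factors (0.125) or library size only (0.089). Nor did ninaE pass with only the 30 and 45 d libraries (0.262) or robust dispersion (0.278). Arr2, the main arrestin, which switches off activated rhodopsin, had 6113, 7891 and 12092 CPM at 45 d, against 10669, 10849 and 13131 CPM at 30 d (log2 change -0.41 ± 0.17, adjusted p = 0.442). Ggamma30A, the gamma subunit of the visual G protein, had 2100, 2183 and 2655 CPM, against 2931, 2850 and 3175 CPM (log2 change -0.37 ± 0.090, adjusted p = 0.0936). In ninaE and Ggamma30A the groups were apart, and in Arr2 replicate 3 lay within the 30 d range. The minor rhodopsin Rh3 had 1300, 1374 and 1468 CPM, against 1373, 1402 and 1349 CPM, a log2 change of 0.0062 ± 0.071. The cascade members norpA (-0.31 ± 0.10), inaD (-0.37 ± 0.17) and ninaC (-0.37 ± 0.11) had values further below 0 than Rh3 or Rh6 (-0.13 ± 0.11). These members were chosen after their values were seen, none passed with all libraries, and the difference between them was not tested.

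Without 45 d replicate 3, 14 of the 31 photoreceptor genes passed the threshold, all lower (background 0.711% lower), and the median of the list was -0.41. They were ninaE, Pdh, inaF-B, Arr2, inaD, retinin, Gbeta76C, inaC, Arr1, Ggamma30A, ninaC, Galphaq, norpA and cry. The last of these, cry, is also on the clock list. Pdh, a photoreceptor dehydrogenase, had 659, 727 and 1692 CPM at 45 d, against 1426, 1198 and 1199 CPM at 30 d, so replicate 3 alone lay above the 30 d range. With all libraries kept but weighted by their spread (limma voom), 12 of the 31 passed, all lower (background 0.775% lower). Leaving out 30 d replicate 1 gave 1, and leaving out any of the other 4 libraries gave 0.

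Clock genes differed widely between libraries of the same age, and none of 9 passed the threshold between ages with all libraries. Without 45 d replicate 3, cry, which is also on the photoreceptor list, passed it (log2 change -0.33, adjusted p = 0.041). The gene tim (timeless) had 655, 868 and 106 CPM at 45 d, against 276, 707 and 944 CPM at 30 d. Likewise per (period) had 171, 204 and 31.9 CPM, against 66.2, 186 and 208 CPM, and vri (vrille), a repressor of Clk, had 348, 446 and 66.2 CPM, against 171, 324 and 379 CPM. Replicate 3 was thus the lowest of the 45 d libraries in all 3 genes, and replicate 1 the lowest of the 30 d libraries. Clk, which peaks at the opposite phase in wild-type flies, had 40.1, 27.2 and 72.5 CPM at 45 d, against 56.3, 41.4 and 37.4 CPM at 30 d, so the same 2 libraries were its highest. At the earlier ages tim also varied within groups, with 341, 635 and 1070 CPM at 3 d and 100, 151 and 285 CPM at 15 d.

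The 12 genes with the largest SD of log2 CPM among 45 d heads, at a mean of at least 16 CPM, included tim, vri and per. Usp8, a ubiquitin protease, had 204, 258 and 62.0 CPM at 45 d, against 101, 279 and 325 CPM at 30 d, the same order as tim. Achl had 6.98, 8.37 and 89.7 CPM, against 82.5, 10.6 and 6.42 CPM, and CG34134 had 5.48, 10.2 and 47.6 CPM, against 41.7, 15.8 and 14.3 CPM; in both the highest libraries were those of Clk, 45 d replicate 3 and 30 d replicate 1. The cuticle gene Cpr72Ec had 166, 250 and 851 CPM at 45 d, against 476, 447 and 602 CPM at 30 d. Cyp4g1, a P450 that makes cuticular hydrocarbons, headed the 12 with 63.3, 42.8 and 1.20 CPM, against 7.17, 12.2 and 29.2 CPM. In muscles Cyp4g1 had 4930, 6149 and 4813 CPM at 45 d, against 6250, 6307 and 8079 CPM at 30 d. Its order among the 45 d heads was also that of the gut genes alphaTry and Jon65Aiv, described below. The part of tissue from outside the head in its spread was not tested. The remaining 4 of the 12 were the antimicrobial peptide genes Dro, AttB and CecA1 and the uncharacterised gene CG45045, with replicate 3 the highest and replicate 2 the lowest at 45 d in each. The part of clock phase, which the labels do not record, in the spread of 45 d replicate 3 was not tested.

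**Figure D4:**
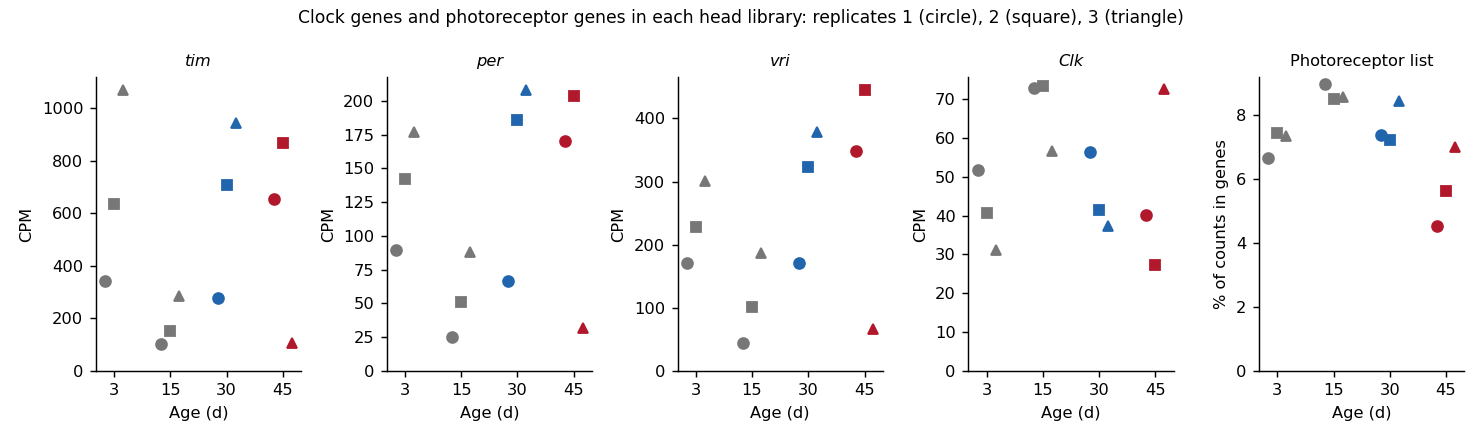
CPM of tim, per, vri and Clk, and the share of counts in genes taken by the photoreceptor list, in each head library by age, with 45 d in red, 30 d in blue and earlier ages in grey. Replicate 3 at 45 d is low in tim, per and vri and high in Clk, and its photoreceptor share of 6.99% is the closest to the 30 d libraries.

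The lists of ribosomal proteins, the respiratory chain and the proteasome held no calls. Of 80 cytosolic ribosomal protein genes, 77 lay below 0, with a median log2 change of -0.053, and 45 d replicate 3 was the highest 45 d library in 78 of the 80; the median was -0.12 without it. Respiratory complex I (32 genes, median -0.098), complexes II to V (32 genes, -0.061) and the mitochondrial genome (15 genes, -0.11) were below 0 as lists, with medians of -0.15, -0.16 and -0.19 without that library. The mitochondrial ribosomal RNA mt:lrRNA had 26600, 25310 and 30220 CPM at 45 d, against 34030, 32310 and 37470 CPM at 30 d (log2 change -0.34 ± 0.10, adjusted p = 0.204). With library size as the only scaling, the median of all genes tested was 0.041 instead of -0.0017. This shift was close in size to the medians of the ribosomal proteins and complexes II to V. It was smaller than those of complex I and the mitochondrial genome. With that scaling, 58 of the 80 ribosomal protein genes lay below 0 (median -0.013). The medians of complex I (-0.057), complexes II to V (-0.022) and the mitochondrial genome (-0.078) also stayed below 0. Of 31 proteasome subunit genes, 22 lay above 0, with a median of 0.032, or 0.0076 without 45 d replicate 3.

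Of 11 heat shock genes, 10 lay below 0, with a median log2 change of -0.43, and none passed. Hsp26, a small heat shock protein, had 8.47, 7.44 and 12.3 CPM at 45 d, against 48.0, 12.2 and 27.2 CPM at 30 d (log2 change -1.66 ± 0.39, adjusted p = 0.0781). The highest 30 d library for Hsp26 and Hsp68 was replicate 1, and without it the median of the list was -0.17. Without 45 d replicate 3 the median was -0.63 and Hsp26 passed (adjusted p = 0.041).

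No tested member of the lists for neurons, glia, fat body, muscle or hemocytes passed the threshold. The fat body list named Gnmt with the spelling GNMT, which was not matched. That gene, which rose (log2 change 1.94, adjusted p = 0.0168), is therefore missing from the fat body values below. Of 27 neuronal and synaptic genes none passed, 8 lay above 0 and 19 below. The median was -0.018, or 0.023 with library size as the only scaling and 0.026 without 45 d replicate 3. The gene ple came closest, with 98.4, 80.7 and 90.9 CPM at 45 d, against 72.8, 57.8 and 54.9 CPM at 30 d (log2 change 0.54 ± 0.12, adjusted p = 0.0515). Its groups lay apart, and it was past the threshold in 8 of the 14 alternatives. Of 12 glial genes 9 lay above 0, none passed, and the median was 0.13, or 0.17 without 45 d replicate 3. The groups lay apart with 45 d higher in 5 of the 12, against 7.18% of all genes tested. The largest glial changes were those of axo, repo and wrapper, at 0.28 ± 0.091, 0.27 ± 0.079 and 0.27 ± 0.094 on the log2 scale (adjusted p = 0.267, 0.171 and 0.307). Fat body genes (13 tested, median -0.056), muscle genes (23 tested, -0.090) and hemocyte and melanisation genes (14 tested, 0.15) held no calls, and their medians were -0.071, -0.097 and 0.065 without 45 d replicate 3. Lsp1beta, a larval serum protein gene on the fat body list, had 87.2, 107 and 108 CPM at 45 d, against 151, 275 and 380 CPM at 30 d (log2 change -1.42 ± 0.39, adjusted p = 0.135). Its groups lay apart, and it passed in 2 of the 14 alternatives. These were only the 30 and 45 d libraries (adjusted p = 0.0324) and no filter on low counts. Its paralog Lsp1alpha had 14.2, 12.8 and 21.4 CPM, against 10.8, 12.2 and 9.34 CPM, a log2 change of 0.56 ± 0.28 (adjusted p = 0.585). Summed over its list, fat body took 1.07 to 1.13% of counts in genes at 45 d and 0.954 to 1.17% at 30 d, and hemocytes took 0.216 to 0.240% at 45 d and 0.189 to 0.212% at 30 d. The hemocyte sums did not overlap and lay higher at 45 d, but these sums were not corrected for library composition. On corrected levels (log2(CPM + 1)), the hemocyte list medians relative to the 30 d mean overlapped. They were 0.15, 0.024 and 0.21 in 45 d replicates 1, 2 and 3, against -0.13, 0.051 and 0.079 at 30 d. Hemocytes and fat body are sources of antimicrobial peptides, and the part of either in the rise of the peptides was not tested. Hml, the hemocyte marker hemolectin, had 414, 394 and 416 CPM at 45 d, against 343, 425 and 403 CPM at 30 d (log2 change 0.06 ± 0.081, adjusted p = 0.867).

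**Figure D5:**
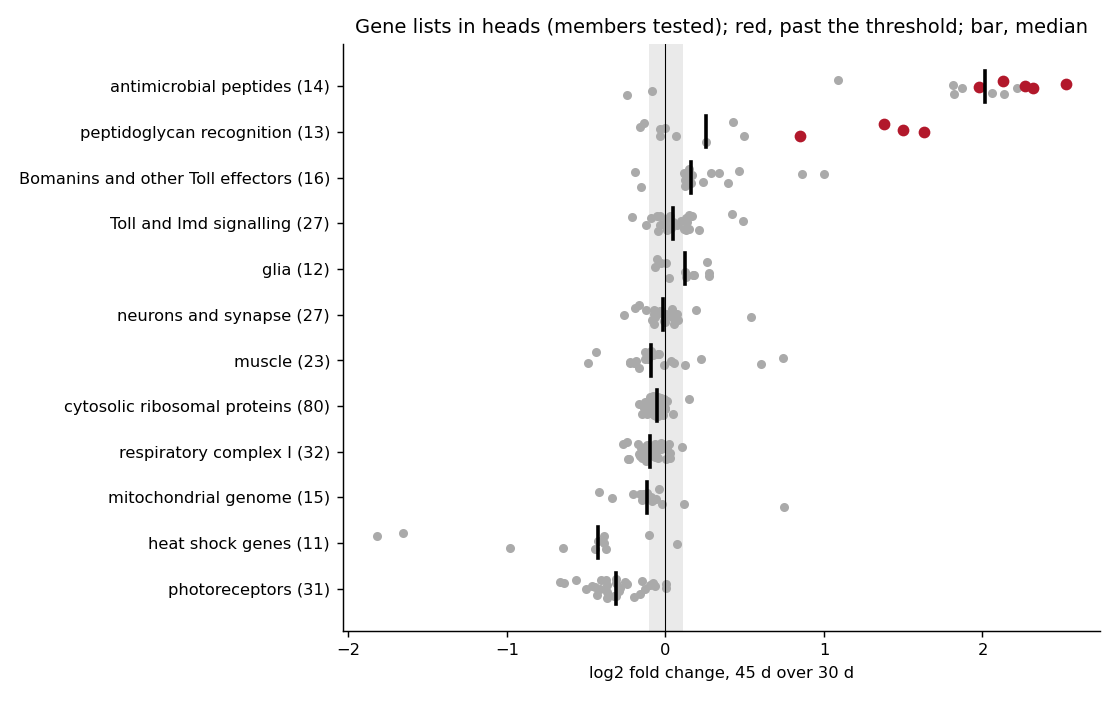
Log2 fold change of 45 d over 30 d for each tested member of 12 gene lists, with the number tested in brackets; red points are past the threshold, black bars are medians, and the grey band runs from the lower to the upper quartile of all genes tested. Calls appear in the antimicrobial peptides (median 2.02) and the peptidoglycan recognition genes (0.26), while the photoreceptor genes (-0.31) lie left of the band without a call.

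Gcn5, the acetyltransferase the study is about, had 80.2, 80.2 and 69.2 CPM at 45 d, against 60.1, 68.1 and 62.2 CPM at 30 d. The groups did not overlap, and the log2 change of 0.27 ± 0.080 did not pass the threshold (adjusted p = 0.176). Without 45 d replicate 3 it was 0.34 with an adjusted p of 0.0497, and over the alternatives the adjusted p ran from 0.0497 to 0.694. Of 27 genes of the SAGA and ATAC complexes, to which Gcn5 belongs, none passed, and their median was 0.025, or -0.049 without 45 d replicate 3. No change of Gcn5 itself is named in the labels of these flies.

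The same age step in muscles, 3 libraries at 45 d and 3 at 30 d, held 0 calls among 8866 genes tested (edgeR, 0%), with 317 at an unadjusted p under 0.05. The test of the difference itself, the head change minus the muscle change in a joint fit of 24 libraries, held 0 calls among 9538 genes tested (0%), with 269 at an unadjusted p under 0.05. None of the 52 genes was therefore shown to change differently in heads. Of the 38 genes that rose in heads and were tested in muscles, 35 had a log2 change above 0 there, and of 9 that fell, 8 were below 0, while 50.2% of all muscle genes lay above 0. PGRP-SD had 102, 80.1 and 116 CPM in 45 d muscles, against 45.7, 40.7 and 41.6 CPM in 30 d muscles, a log2 change of 1.22 ± 0.28 beside 1.38 ± 0.18 in heads (adjusted p = 0.533 in muscles). Def had 62.0, 24.3 and 93.0 CPM in 45 d muscles, against 15.0, 23.3 and 23.6 CPM in 30 d muscles, a log2 change of 1.53 ± 0.66 beside 2.53 ± 0.34 in heads. In both tissues 45 d replicate 3 was the highest library for these 2 genes. One muscle library at 45 d, also replicate 3, had 36.6% of its reads not uniquely aligned; without it the test of the difference held 3 calls, the heat shock genes Hsp67Bc, Hsp68 and DnaJ-1. The gene tim had 291, 399 and 62.6 CPM in 45 d muscles and 128, 188 and 268 CPM in 30 d muscles. These are the replicate orders of tim in heads. DptA kept its head order at 45 d (197, 94.1 and 332 CPM in muscles) but not at 30 d (63.7, 25.4 and 65.7 CPM). Whether same-numbered head and muscle libraries share flies or a collection was not tested. The muscle directions are therefore not shown to be independent of those in heads.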

How the data were processed

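Single-end reads of poly-A RNA came from 3 head libraries per age. The authors deposited whole-number read counts for each gene, and 5 closing tallies, left out here: 3.78 to 4.33% of reads in the 6 libraries had no feature, and 5.05 to 6.02% were not uniquely aligned. The submitters' processing notes name DESeq2, featureCounts 2.0.1, STAR 2.7.6a and Trim Galore 0.6.6. Because the tallies look like those of htseq-count, the counting tool is uncertain. Build, annotation and strandedness of the counting are items not given in the sources used here, so overlapping and near-identical genes can share or lose reads. FlyBase symbols were found for 17358 of 17494 gene identifiers. Coordinates are those of annotation r6.36, per the file headers of other deposited files.

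The fit took all 12 head libraries with one mean per age. Genes passed filterByExpr (count 10, total 15; 9035 genes), libraries were scaled by TMM, and edgeR 4.0.16 under R 4.3.3 gave quasi-likelihood F-tests, with Benjamini-Hochberg adjustment across the 9035 genes and a threshold of 0.05. The coefficient of variation was 0.0859. The standard error is the size of the log2 change divided by the square root of F. Muscles were fitted alone, and a joint fit of 24 libraries gave the tissue difference. The fit was tested on simulated data. Depth limits genes near the count filter.

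The members and the 40 gene lists were chosen with earlier results of these data known, so no list is independent support for its direction; 23 symbols of the lists were not matched and not used here. Lists are described by counts and medians. Named genes are Gcn5, the 15 largest rises and 10 largest falls past the threshold, up to 6 members of each list past it or otherwise 3 with the smallest p, and the 12 genes with the largest spread at 45 d; other members of lists, and genes marked so, were chosen after their values were seen. The alternatives were DESeq2 1.42.0, limma 3.58.1 (voom with sample weights), DESeq2 size factors, library size only, no filter, only the libraries of both ages, robust dispersion, a replicate block, and each library left out.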

Additional observations from a re-analysis of the deposited data

How the results depend on the processing

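The 42 genes that rose and 10 that fell became 89 and 70 with limma voom and sample weights, 210 and 94 with no filter on low counts, 26 and 7 with only the 30 and 45 d libraries, 47 and 19 with DESeq2, 32 and 6 with robust dispersion, 59 and 9 with library size only, and 42 and 10 with DESeq2 size factors. Leaving out 1 library gave 9 to 73 higher and 1 to 65 lower. The share of calls that were higher, 80.8%, was 86.8% with library size only, where the median of all genes tested moved to 0.041, and 56% with sample weights, 69.1% with no filter, 71.2% with DESeq2, and 52.9% to 95% when a library was left out. Antimicrobial peptides past the threshold numbered 5, but 2 with DESeq2, 14 with no filter, 1 with robust dispersion and 1 to 11 when a library was left out; recognition genes numbered 4, but 2 with robust dispersion and 1 to 4 when a library was left out. Photoreceptor genes lower numbered 0, but 14 with no filter and 2 with DESeq2. The difference between heads and muscles, 0 genes, gave 7 with only the 30 and 45 d libraries, 4 with DESeq2 and 0 to 3 when a library was left out. With no filter, the prior degrees of freedom of the edgeR fit were 222 instead of 8.45, against 8 residual ones, so a gene's own spread weighed little in those p-values. The cause of the other shifts was not tested.

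Replicate numbers did not pair the 2 ages: same-numbered libraries had deviations correlated at -0.00669, 0.0315 and -0.0133, and not every library correlated best with its own number. A fit with the replicate block gave 48 higher and 15 lower, of which 41 and 10 were among the 52, with 7 antimicrobial peptides, 4 recognition genes and 0 genes in the test against muscles.

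Of 52 called genes, 8 stayed past the threshold in all 14 alternatives, and none changed direction. Among the 100 named genes not called, changes of sign in log2 values close to 0 or resting on single libraries occurred in 9. When a library was left out, log2 values ran from -0.11 to 0.13 for Est-6, -0.48 to 0.45 for vri, -2.12 to 1.94 for Achl, -0.57 to 0.29 for per, -0.74 to 0.25 for tim, -0.44 to 0.027 for TotA, -0.38 to 0.016 for Pdp1, -1.29 to 0.11 for Cpr72Ec and -1.6 to 0.39 for CG34134. Est-6 was also -0.043 with sample weights; vri was 0.095 with sample weights, 0.052 with library size only and 0.10 with the replicate block; Achl was 0.070 with DESeq2 and 0.13 with the replicate block; tim was 0.027 with the replicate block. With 3 libraries per age of which 1 stands apart at 45 d, a gene that missed the threshold is not shown to be level.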

Other observations

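Genes of tissues outside the head differed among the 45 d libraries. The sperm leucyl-aminopeptidase genes S-Lap4 and S-Lap8 had 10.2, 1.40 and 0 CPM and 9.72, 1.16 and 0 CPM in 45 d replicates 1, 2 and 3, against at most 0.278 and 0.276 CPM in any 30 d library, and loopin-1, another gene of this family, had 11.0, 1.63 and 0 CPM at 45 d, against 0 in all 3 libraries at 30 d. Replicate 1 held nearly all of these counts, and none of the 3 genes reached the count filter with all 12 head libraries. Without 45 d replicate 3, S-Lap4, S-Lap8 and loopin-1 were tested and called higher (edgeR, adjusted p = 0.022, 0.0274 and 0.0239). No 30 d library held more than 1 count of any of them, so a lower call was not possible. The direction of these calls therefore carries no information. Heads at 3 d also held S-Lap4, S-Lap8 and loopin-1, with 16, 12 and 12 counts in replicate 3. These 3 genes are among the 35 higher calls counted below. The trypsin gene alphaTry had 12.2, 6.05 and 0 CPM at 45 d, against 0, 1.11 and 4.09 CPM at 30 d, and the gut protease gene Jon65Aiv had 7.47, 4.88 and 0 CPM, against 0, 1.67 and 1.75 CPM. CG4836, an uncharacterised gene, had 23.9, 3.72 and 0.301 CPM at 45 d, against 0, 0.278 and 1.17 CPM at 30 d. It too was called higher without 45 d replicate 3 (adjusted p = 0.0158) and not with all libraries. Over the whole testis list of 22 genes, 2 of them tested, the summed share of counts in genes was 0.0014 to 0.0053% at 45 d and 0.0016 to 0.0022% at 30 d, with comr and nht at 0 in all 6 libraries. Over the gut list of 46 genes, 10 of them tested, the sums were 0.0504 to 0.0565% at 45 d and 0.0390 to 0.0458% at 30 d, and 9 members were at 0 in all 6 libraries. The part of such tissue in the results was not tested.

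The calls that appear without 45 d replicate 3 and not with all libraries numbered 35 higher and 56 lower. Besides the 14 photoreceptor genes they included the cuticle genes Cpr72Ec and Cpr49Ag, with log2 changes of -1.29 and -1.19 without that library and -0.28 and -0.85 with it, and the P450 gene Cyp305a1, at -0.63 without it and -0.41 with it.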
